A study of Caenorhabditis elegans with 5 samples.

Results

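LIN-42 is related to the circadian clock protein PERIOD and acts in C. elegans development. Of the protein kinase genes nearest to regions that it occupied in these ChIP-seq libraries, 5 are described: kin-20, daf-2, dapk-1, dkf-2 and src-1. A further 3, dkf-1, tlk-1 and pat-4, are compared with them below. The 5 genes were chosen from the closest-gene column of the authors' annotation of high-confidence regions. Those regions were themselves made from the LIN-42::GFP peaks, so the presence of a peak at each gene is a description and carries no test. The chosen genes are 5 of 338 closest genes, with 5 of 404 distinct regions and 15 of the 4654 peaks in the 3 deposited lists.

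Animals of strain HML214, which carries GFP-tagged LIN-42, were grown at 20 °C on OP50 bacteria and staged to late L4. Whole-animal chromatin was precipitated with an antibody against GFP in 2 biological replicates (LIN-42::GFP replicates 1 and 2) and with an antibody raised against LIN-42 in 1 library (endogenous LIN-42), and 2 inputs of the same strain served as unprecipitated chromatin. All 5 samples shared the strain, so the animals of the endogenous LIN-42 library also carried the tagged protein, and no library came from animals without LIN-42. Extracts pooled all tissues, so a peak cannot be assigned to a cell type.

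Protein kinases pass on signals by adding phosphate to other proteins. In the animal clock, casein kinase 1 phosphorylates PERIOD and sets how long it lasts, and kin-20 encodes the C. elegans homolog of that clock kinase, Doubletime in flies. daf-2 encodes the insulin and IGF receptor, a tyrosine kinase at the cell surface that controls dauer entry, growth and lifespan through the transcription factor DAF-16. dapk-1 encodes a death-associated protein kinase that restrains wound responses in the epidermis, dkf-2 a protein kinase D that acts downstream of diacylglycerol in innate immunity and sensory learning, and src-1 a Src-family tyrosine kinase used in cell polarity and migration.

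MACS counted each mapped position once, so few tags remained: 38236 in replicate 1 and 43991 in replicate 2 of LIN-42::GFP, and 122089 for the LIN-42 antibody. They came from 833169, 4334100 and 2268716 aligned tags. Redundant tags thus made up 95.4%, 99.0% and 94.6% of the libraries. The lists held 946, 2580 and 1128 peaks, and the smallest called peak had 4 tags where the antibody was against GFP and 5 where it was against LIN-42. Counts at single peaks were therefore small, and each is given with its exact 95% Poisson interval, which covers counting error only.

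The 5 regions were compact, and each held exactly 1 peak in each of the 3 lists. Coordinates are those of ce10. The kin-20 region (chromosome X, 15275369 to 15275546) belonged to the promoter class and began 2579 bp away from the annotated start. The dapk-1 region (chromosome I, 1302467 to 1302680) and the dkf-2 region (chromosome V, 16757569 to 16757735) shared that class, with start-site distances of 3004 bp and 6584 bp. All 3 distances exceed the promoter length that the text of the study gives, so the class is used here only as the name in the annotation. The regions of daf-2 (chromosome III, 3018109 to 3018292, start-site distance 10592 bp) and src-1 (chromosome I, 1576650 to 1576784, 9783 bp) were intronic, in intron 4 of 11 and intron 4 of 5. For dkf-2 the annotation also gave a distance to the gene of -30300 bp, with a sign that the sources used here do not define, so the placement of this region relative to the longest form of dkf-2 was not settled. The median start-site distance over the annotation was 2362 bp, and all 5 regions lay farther than that.

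Endogenous LIN-42 overlapped all 5 regions by at least 1 bp, beside 313 of the 404 regions in all (77.5%). Since the genes were picked with this result known, nothing is read from the difference. The stretch common to the peaks of all 3 lists was 114 bp at kin-20, 138 bp at daf-2, 136 bp at dapk-1, 121 bp at dkf-2 and 103 bp at src-1.

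Tags at the kinase genes differed several-fold from dapk-1 at the top to daf-2 at the bottom. Genes next to each other in this order were separated less clearly. In LIN-42::GFP replicates 1 and 2, dapk-1 held 27 tags (17.8 to 39.3) and 39 tags (27.7 to 53.3), and it held 44 (32.0 to 59.1) with the LIN-42 antibody. It was the most heavily covered of the 5 in every list, and of the 313 regions found in all 3 lists only 47, 34 and 61 had more tags in these libraries. dkf-2 held 21 tags (13.0 to 32.1), 22 (13.8 to 33.3) and 28 (18.6 to 40.5). dapk-1 was above dkf-2 in all 3 libraries, by a ratio of 1.29 (exact 95% interval 0.700 to 2.39) in replicate 1, 1.77 (1.03 to 3.14) in replicate 2 and 1.57 (0.957 to 2.62) in endogenous LIN-42, so replicate 2 was the library whose interval left out equal counts.

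src-1 held 11 tags (5.49 to 19.7) in replicate 1, 12 (6.20 to 21.0) in replicate 2 and 16 (9.15 to 25.98) in endogenous LIN-42. It took the middle place in replicate 1 and endogenous LIN-42 but lay below kin-20 in replicate 2. Ratios of src-1 to kin-20 were 2.20 (0.705 to 8.08), 0.632 (0.280 to 1.37) and 1.14 (0.523 to 2.53), and each interval included equal counts. The counts of src-1 were the typical ones among the 313 regions, whose medians were 13, 12 and 17 tags. daf-2 held 4 tags (1.09 to 10.2), 7 (2.81 to 14.4) and 6 (2.20 to 13.1). The 4 tags in replicate 1 were the fewest with which any peak was called in that list, and 299 of the 313 regions had more tags there. In replicate 2 and in endogenous LIN-42, 238 and 287 regions had more tags than daf-2. Ratios of kin-20 to daf-2 were 1.25, 2.71 and 2.33 in replicate 1, replicate 2 and endogenous LIN-42. Their intervals were 0.269 to 6.30, 1.09 to 7.64 and 0.842 to 7.41, so replicate 2 alone left out equal counts.

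kin-20 was the gene with the largest ratio of replicate 2 to replicate 1 in tags, among the 5. Its peak had 5 tags (1.62 to 11.7) and 19 tags (11.4 to 29.7) in LIN-42::GFP replicates 1 and 2, and 14 (7.65 to 23.5) with the LIN-42 antibody. In these counts replicate 1 was the low library and replicate 2 the high one, with a ratio of replicate 2 to replicate 1 of 3.80 (exact 95% interval 1.37 to 13.0). Per 1000000 aligned tags the direction turned, to 6.001 in replicate 1 and 4.38 in replicate 2. The ratio was then 0.730 (0.264 to 2.50) beside a median of 0.201 over the 313 regions. This scale divides the retained tags of a peak by all aligned tags, redundant ones included, so it changes every region by the same factor. The place of kin-20 among the regions did not turn, with 308 lower and 4 higher on this scale too. In tags, the ratio over the 313 regions had a median of 1.05 (quartiles 0.765 and 1.43), and it was lower than at kin-20 in 308 regions and higher in 4. The region was singled out for its ratio after the values were seen. At the other 4 kinase genes the ratios were 1.75 at daf-2, 1.44 at dapk-1, 1.05 at dkf-2 and 1.09 at src-1, and each of their intervals included equal counts.

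**Figure D1:**
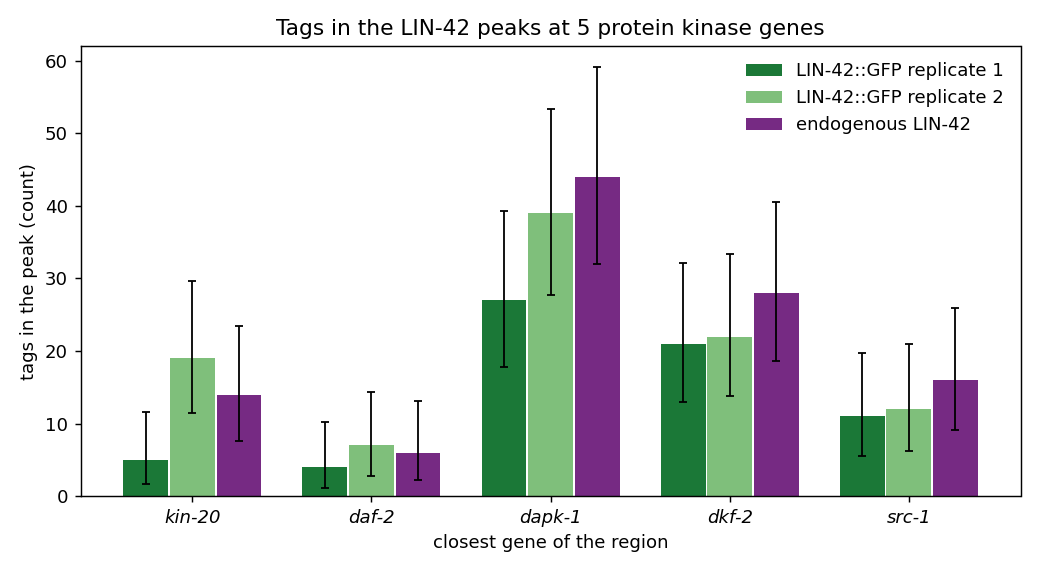
Tags in the peak of each list at the 5 regions, as bars from 0 with exact 95% Poisson intervals (counting error only), for LIN-42::GFP replicate 1, replicate 2 and endogenous LIN-42. dapk-1 has 27, 39 and 44 tags and daf-2 has 4, 7 and 6, while kin-20 has 5 tags in replicate 1 and 19 in replicate 2.

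On the scale of tags per 10000 retained tags, kin-20 had 1.31 in replicate 1, 4.32 in replicate 2 and 1.15 in endogenous LIN-42. dapk-1 had 7.06, 8.87 and 3.60. On this scale dkf-2 had 5.49, 5.001 and 2.29, src-1 had 2.88, 2.73 and 1.31, and daf-2 had 1.05, 1.59 and 0.491. On this scale the endogenous library had the lowest value at all 5 genes, and replicate 2 was above replicate 1 at 3 of them (kin-20, daf-2 and dapk-1). The scale decided both orders, because it multiplies all genes of a library by the same factor. Aligned tags include the redundant tags that the peak counts leave out, so that scale mixes 2 kinds of count. Per 1000000 aligned tags, the endogenous library was lowest at 0 of the 5 genes, replicate 2 was lowest at all 5, and dapk-1 had 32.4 in replicate 1, 8.998 in replicate 2 and 19.4 in endogenous LIN-42.

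Summits fell close together at every kinase gene. The summits of the 3 lists spanned 5 bp at src-1, 11 bp at dkf-2, 16 bp at kin-20, 25 bp at daf-2 and 27 bp at dapk-1, and the median over the 313 regions was 13 bp (quartiles 6 and 64 bp). src-1 had its replicate 1 and endogenous LIN-42 summits on the same base, with replicate 2 at 5 bp from them. At daf-2 the replicate 2 and endogenous LIN-42 summits were 3 bp apart, and the replicate 1 summit, from 4 tags, lay 22 bp and 25 bp away. At dapk-1 the replicate 2 summit was the distant one, at 16 bp from replicate 1 and 27 bp from endogenous LIN-42. At kin-20, replicate 2 lay 9 bp from replicate 1 and 16 bp from endogenous LIN-42, which were 7 bp apart. MACS placed 13 of the 15 summits within 1 bp of the center of their peak, the exceptions being dapk-1 in replicate 2 and daf-2 in endogenous LIN-42, so a summit offset is largely an offset between peak centers.

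The rank of a kinase gene within a list depended on the list when the MACS fold enrichment was used. dapk-1 ranked 8 of 946 in replicate 1 (fold 653) and 22 of 1128 in endogenous LIN-42 (fold 97.0), but 730 of 2580 in replicate 2 (fold 90.8). dkf-2 ranked 29 in replicate 1 (fold 508) and 1 in endogenous LIN-42 (fold 115), but 1705 in replicate 2 (fold 71.6). The low library was thus replicate 2 for both genes, although neither had fewer tags there than in replicate 1. kin-20 showed the reverse order, with rank 281 in replicate 1 (fold 121), 9 in replicate 2 (fold 393) and 184 in endogenous LIN-42 (fold 57.5).

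src-1 ranked 115 in replicate 1 (fold 252), 26 in replicate 2 (fold 248) and 6 in endogenous LIN-42 (fold 106). daf-2 ranked 559 (fold 94.3), 324 (fold 114) and 843 (fold 24.8), outside the upper 10% of each list. Of the 15 peaks, 7 were in the upper 10% of their list by fold, 7 by tags and 9 by MACS score. These shares refer to all peaks of a list, with median tags of 6, 5 and 7. The 313 regions found in all 3 lists had medians of 13, 12 and 17 tags. Shares over those regions were not computed, so these counts do not set the kinase genes apart from other regions. Ranked by tags, dapk-1 stood at 55, 42 and 73 and dkf-2 at 82, 109 and 128, so the drop in replicate 2 was in the fold and not in the tags. By MACS score dapk-1 stood at 18, 44 and 18, and dkf-2 at 52, 105 and 25. The false discovery rate that MACS gave was 0% for each of the 5 peaks in replicate 1. In replicate 2 it was 1.61% at kin-20, 0.25% at daf-2, 2.27% at dapk-1, 1.90% at dkf-2 and 1.15% at src-1. This rate was thus lowest at daf-2, which had the fewest tags of the 5 there (7) and the lowest MACS score. It was highest at dapk-1, which had the most tags (39) and the highest score. The rate is therefore not read as an order of reliability among the 5.

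**Figure D2:**
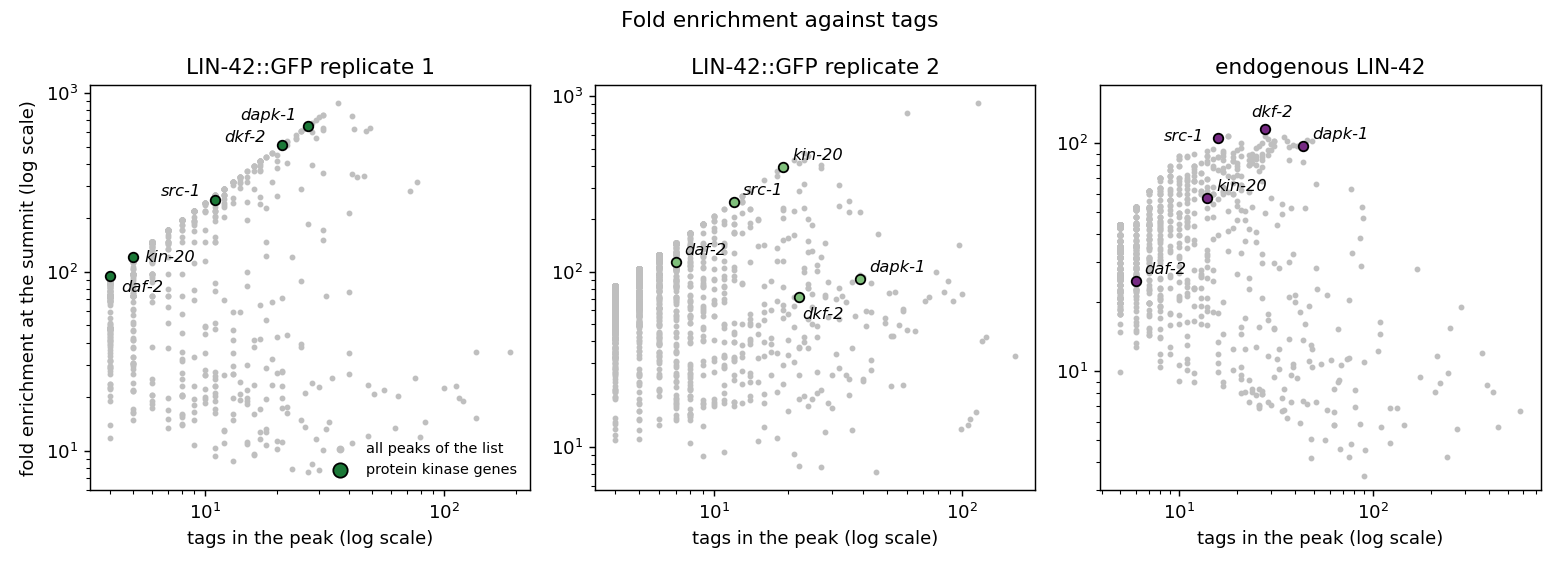
MACS fold enrichment at the summit against tags in the peak, both on log scales, for every peak of the 3 lists (gray) and for the 5 kinase genes (colored). In replicate 1 the 5 genes lie along the upper edge, while in replicate 2 dapk-1 (39 tags, fold 90.8) and dkf-2 (22 tags, fold 71.6) lie below kin-20 (19 tags, fold 393).

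The fold values could be taken apart further. MACS divides the tags at the summit by the larger of a genome-wide and a local background, so a fold cannot exceed a fixed value per tag, here 24.3 in replicate 1, 20.7 in replicate 2 and 8.78 in endogenous LIN-42, computed from the retained tags, the fragment size and a genome of 90000000 bp. The highest fold per tag found in each list equaled that value to 3 digits. Where a peak is at most 2 fragment sizes wide, so that every tag can reach the center, tags and fold together give the background that was used.

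In replicate 1 this background was 1.00 times the genome-wide level at kin-20, dapk-1 and dkf-2, 1.03 times at daf-2 and 1.06 times at src-1. In replicate 2 it was 1.00 times at kin-20 and src-1 and 1.27 times at daf-2, but 6.35 times at dkf-2. dapk-1 in replicate 2 was wider than the limit, at 214 bp against 198 bp, and its background was at most 8.88 times the genome-wide level. This background is computed from the fold itself, so it is no separate measurement. It restates in other units that the folds of dkf-2 and dapk-1 in replicate 2 were low for their tags. Over the 204 regions with narrow peaks in both LIN-42::GFP lists the median was 1.00 in replicate 1 and 2.50 in replicate 2, and 85 regions exceeded 3 in replicate 2, of which 57 were below 1.1 in replicate 1. The value at dkf-2 was reached or passed in replicate 2 by 41 of these regions, dkf-2 included, and in replicate 1 by 5.

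The control named for the replicate 2 list kept 1697123 tags, with 61% of its tags redundant, and that for replicate 1 kept 3320847 with 7% redundant. The labels number the inputs 1 and 2 and the list headers number them otherwise, so which labelled input served which list cannot be told. The part of the control in the backgrounds at dapk-1 and dkf-2 was not tested.

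**Figure D3:**
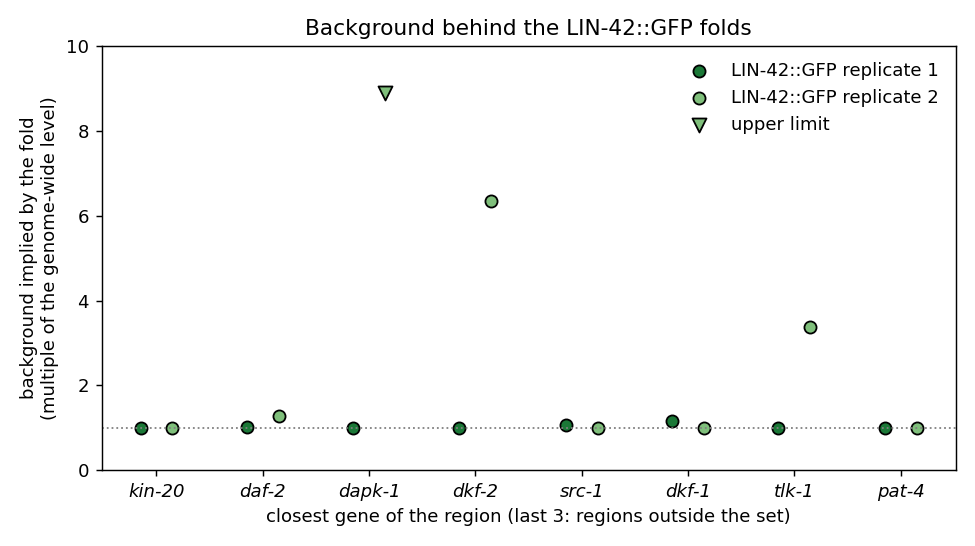
Background implied by fold and tags, as a multiple of the genome-wide level (dotted line at 1), in LIN-42::GFP replicate 1 and replicate 2 for the 5 kinase genes and 3 further kinase regions; the triangle is an upper limit. dkf-2 stands at 6.35 and dapk-1 at no more than 8.88 in replicate 2, while all points of replicate 1 lie between 1.00 and 1.17.

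For endogenous LIN-42 the sources differ: the header of its list names no control, while the methods of the study describe peak calling against input for every library. If the header holds and MACS took the background from the library itself over 10 kb (10000 bp), folds below the genome-wide maximum give the number of tags in that window. Of 379 narrow peaks of this kind, 377 gave a whole number (99.5%, tolerance 0.02 tags plus rounding). Among peaks wider than the limit, 29.9% did so in this list. In LIN-42::GFP replicates 1 and 2, whose lists name a control, 82.9% and 88.0% of the narrow peaks of this kind did. Of the wider peaks, 71.5% and 50.7% did. Whole numbers were thus also common in lists with a named control, and they do not settle the reading alone. The rate to expect by chance at this tolerance was not computed. With the folds read as window tags, dkf-2 had 28 of the 29 tags of its window inside the peak, leaving 1 outside. src-1 had 16 of 18, and dapk-1 had 44 of 54. kin-20 had 14 of 29, leaving 15 outside the peak. The peak of daf-2, at 170 bp, was wider than the limit of 168 bp and gave no value.

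Over the 171 annotated regions with a narrow endogenous peak, the median number of tags outside the peak was 10 (quartiles 7 and 13). dkf-2 was the 1 region with 1 or fewer, src-1 was among 4 with 2 or fewer, and kin-20 was among 35 with 15 or more. On this reading, a fold below the genome-wide maximum rises only with the share of the window's tags that lie in the peak. The window tags are computed from the fold itself. That dkf-2 stood nearly alone in its window therefore restates its top fold rank in other units and is no separate measurement. Folds of this kind also differ in measure from the LIN-42::GFP folds, whose lists name a control. The top fold rank did not go to the peak with the most tags, since dkf-2 ranked 128 by tags.

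Around the 5 regions, a further 12 peaks lay within 20 kb. They numbered 1 in replicate 1, 7 in replicate 2 and 4 in endogenous LIN-42, with 4 to 7 tags each. Such counts were ordinary, since the median over all peaks of these lists was 6, 5 and 7 tags. The peaks of daf-2 itself had 4, 7 and 6. None of the 12 peaks overlapped a peak of another list and none lay in an annotated region. Each annotated region held a peak of both LIN-42::GFP lists, so the absence from regions follows in part from the lack of overlap. The annotation had 404 regions, beside 2580 peaks in the replicate 2 list. The share of all peaks without an overlap was not computed, so these 12 are not set apart from other peaks. Every kinase gene had at least 1 other peak within 20 kb, beside 346 of the 404 regions (85.6%). The counts of 1 to 3 per gene can be set beside a median of 3 over all regions (quartiles 1 and 6, highest 32).

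At src-1 the only other peak was in replicate 2, 8119 bp away with 4 tags. kin-20 had 1 in replicate 2, at 3857 bp with 4 tags, and 1 in endogenous LIN-42, at 16961 bp with 5 tags, which was the farthest peak inside the window. The nearest peak outside the window was also at kin-20, in replicate 2, at 25676 bp with 5 tags. dapk-1 had 1 in each list, among them the nearest of all, in replicate 1 at 1188 bp with 4 tags. daf-2 and dkf-2 each had 2 in replicate 2 and 1 in endogenous LIN-42, at 3054 bp or more from daf-2 and 2352 bp or more from dkf-2. Beyond the window, src-1 was the 1 gene whose nearest outer peaks coincided in all 3 lists, at 27534, 27540 and 27548 bp, with 5 tags in replicate 1, 7 in replicate 2 and 9 in endogenous LIN-42.

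**Figure D4:**
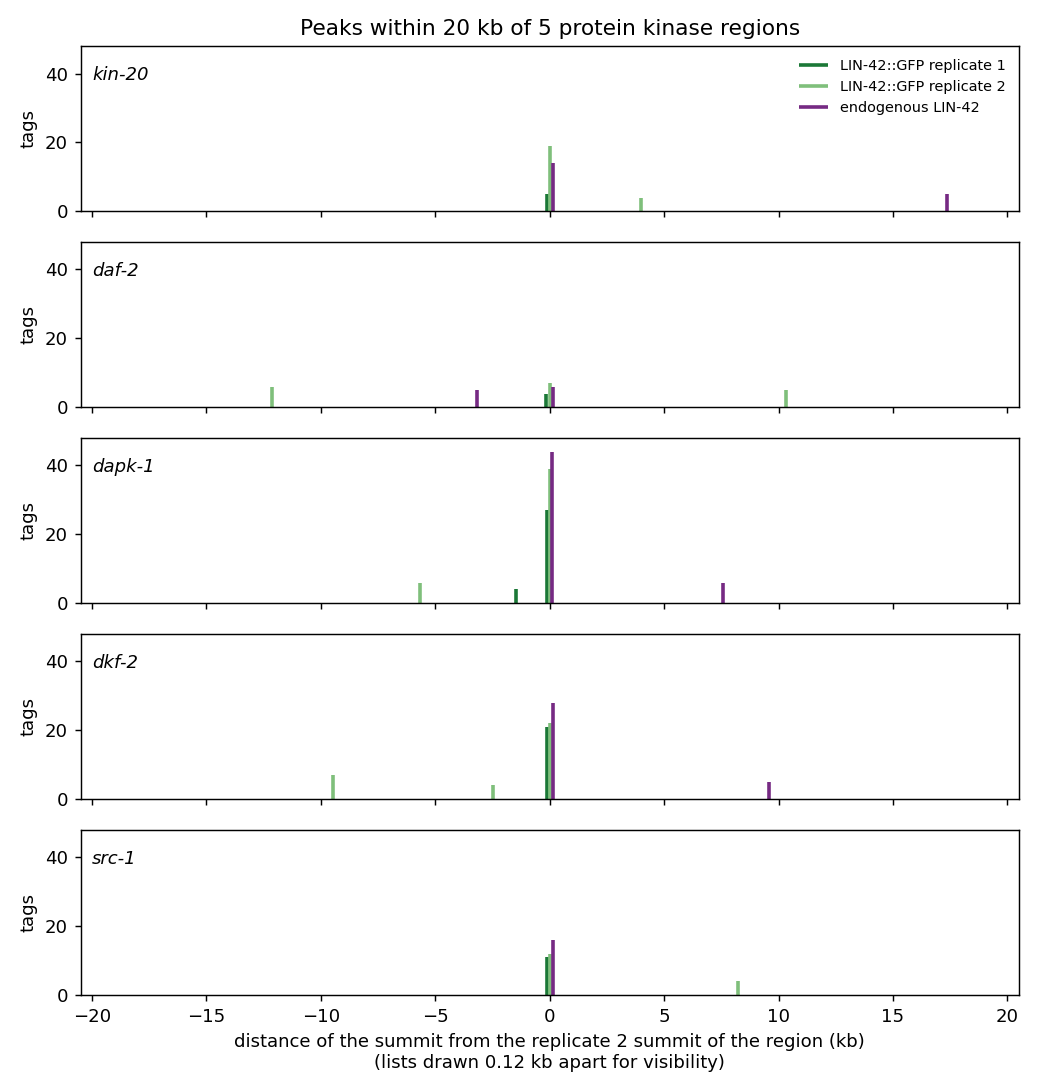
Tags of every peak within 20 kb of the 5 regions, against the distance of its summit from the replicate 2 summit of the region (kb, lower to higher coordinates), by list. At each gene the peaks of the 3 lists stand together at 0, and the 12 other peaks, with 4 to 7 tags, stand singly.

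Of the further protein kinase genes looked up by name in the annotation, 3 were closest genes and were compared with the 5, and other kinases outside the lists were not looked up. dkf-1, the other protein kinase D gene, had a promoter-class region (chromosome I, 13648930 to 13649062) with a start-site distance of 602 bp and held 6 tags in replicate 1, 4 in replicate 2 and 7 in endogenous LIN-42. These were below the 21, 22 and 28 tags of dkf-2, and the intervals of the pair did not overlap in replicate 2 (13.8 to 33.3 for dkf-2, 1.09 to 10.2 for dkf-1) or endogenous LIN-42 (18.6 to 40.5 for dkf-2, 2.81 to 14.4 for dkf-1). In replicate 1 they overlapped narrowly (13.0 to 32.1 for dkf-2, 2.20 to 13.1 for dkf-1). An overlap of separate intervals does not show equal counts, and the interval of the ratio was not computed for this pair.

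tlk-1, which encodes a tousled-like kinase of chromatin and DNA replication, had 11, 11 and 7 tags in replicate 1, replicate 2 and endogenous LIN-42 at a promoter-class region with a start-site distance of 4871 bp. Like dkf-2, tlk-1 ranked low by fold in replicate 2 (1804 of 2580, fold 67.5) and high in replicate 1 (102 of 946, fold 267). Its background in replicate 2 was 3.37 times the genome-wide level. By fold, 30.1% of the replicate 2 list lay below tlk-1 and 33.9% below dkf-2. dapk-1 also ranked lower in replicate 2 than in replicate 1, but 71.7% of the replicate 2 list lay below it. pat-4, the integrin-linked kinase homolog of muscle attachments, had 4, 5 and 7 tags in intron 6 of 7, close to the counts of daf-2.

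Among related genes, few others were the closest gene of a region. Over all protein-coding genes named in the reference table, 268 of 19983 were (1.34%). Of 9 clock homologs 1 was, kin-20, and lin-42 itself was not. Of the 3 casein kinase 1 genes in the list, kin-20 was the 1 with a region, and kin-19 and csnk-1 had none. Of 18 insulin pathway genes 2 had a region, daf-2 and the insulin-like peptide gene ins-29, so age-1, akt-1 and daf-16, which act downstream of the receptor, had none. Of 6 protein kinase D pathway genes 2 had one, dkf-1 and dkf-2. dapk-1 was the 1 gene of 8 in the list on its kinase and wound responses, src-1 was the 1 of 12 in the Src pathway list, and pat-4 and tlk-1 were the 2 of 68 other protein kinases. The lists were built around the members, so these counts are descriptions.

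Regions with the most similar tag profiles were found by the Euclidean distance between log2 tags per 10000 retained tags over the 3 libraries. For kin-20 they were those of Y45G12B.3 (5, 14 and 17 tags in replicate 1, replicate 2 and endogenous LIN-42; distance 0.52) and Y38C1AB.4 (6, 27 and 15 tags; distance 0.58). kin-20 was the gene with the largest distance to its nearest region. For daf-2 they were ztf-18 (4, 6 and 6 tags; distance 0.22) and ekl-4 (4, 6 and 8 tags; distance 0.47). For dapk-1 they were ddl-2 (31, 34 and 44 tags; distance 0.28) and ZK218.8 (23, 36 and 61 tags; distance 0.54). dkf-2 resembled agef-1 (21, 24 and 27 tags; distance 0.14) and wrt-6 (21, 25 and 29 tags; distance 0.19), and src-1 resembled mvk-1 (11, 12 and 17 tags; distance 0.09) and ell-1 (12, 13 and 17 tags; distance 0.19). None of these 10 genes was in the kinase lists.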

How the data were processed

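The 3 deposited MACS lists and the authors' annotation of regions, closest genes and classes were used. The authors aligned reads to ce10 with Bowtie2 (version not given in the sources used here) and called peaks in each library with MACS 1.4.2 at a p-value of 1e-05. The deposited count of tags per peak was not normalized, and a single tag was kept per position. The deposited score is 10 times the negative log10 of the p-value. The fold enrichment is the authors' MACS ratio of summit tags to background, and the false discovery rate, in percent, was deposited for the LIN-42::GFP lists. No control is named in the header of the endogenous LIN-42 file.

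Peaks were joined to regions by an overlap of 1 bp or more, and other peaks were taken within 20 kb. Ranks ran within a list, with ties at the best place. Intervals are exact Poisson (tags) or Clopper-Pearson (tag ratios) at 95%. Named genes were the 5 kinase genes, 3 other kinase genes with a region, list genes with a region and the 2 most similar regions per gene. A few genes of the lists without a region (lin-42, kin-19, csnk-1, age-1, akt-1, daf-16) were named after their result was seen. The decomposition of folds was also chosen after seeing the data. The members and gene lists were chosen with earlier results of these data known. The functions were tested on simulated peaks. Tables were handled in Python 3.11.15 with pandas 2.3.3 and NumPy 2.4.6, intervals came from SciPy 1.17.1, and plots were drawn with Matplotlib 3.10.9.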

Additional observations from a re-analysis of the deposited data

How the results depend on the processing

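No paired analysis was possible because the groups that share replicate numbers are LIN-42::GFP and input, and the inputs have no peak list of their own. The count of kinase genes found in all 3 lists was 5, and 3 with 6 tags or more, where kin-20 and daf-2 dropped out; it was 4 when peaks needed a p-value of at most 1e-10, where daf-2 dropped out. Leaving out a LIN-42::GFP list can only keep this count at 5. The 12 other peaks within 20 kb became 44 in a 50 kb window and 4 with 6 tags or more, and ranged between 5 (without replicate 2) and 11 (without replicate 1). The number of genes with more tags in replicate 2 than in replicate 1, which was 3 per 10000 retained tags, was 0 per 1000000 aligned tags. Aligned tags include the redundant tags that were left out of the peak counts. The largest summit span, 27 bp, ranged between 25 and 27 bp when a LIN-42::GFP replicate was left out, but single spans moved more: without replicate 2 they were 7 bp at kin-20, 11 bp at dapk-1 and 0 bp at src-1, and without replicate 1 the span at daf-2 was 3 bp. Of the 15 fold ranks, 9 moved by over 1.5 times when peaks were ranked by MACS score and 11 when ranked by tags, and 0 when ties took the lowest place. Without clustered peaks (2000 bp or less apart) dapk-1 left the replicate 1 list, and 0 of the other 14 moved by that much. At these depths a region with fewer than 4 tags could not be called, and the counts of kin-20 in replicate 1 and of daf-2 lie at or within 3 tags of that limit. There was 1 endogenous LIN-42 library, so its values have no replicate check.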
